A study of Homo sapiens with 6 samples.

Results

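The comparison described here set the array labelled MIA2 siRNA against the control array, 2 of the 6 arrays of the series, in HSC3 cells, an established human oral squamous cell carcinoma line. Total RNA of each condition was labelled with Cy5 and hybridised to a 1-colour whole-genome array with 1 spot per gene probe. The condition of each array was taken from its label, and the other 4 arrays are labelled LEMD1 siRNA, MIA siRNA, TANGO siRNA and MATE2 siRNA. By its label, the tested array holds RNA of cells treated with siRNA against MIA2. The deposited design gives the control cells a control siRNA, and the methods name a negative control siRNA for knockdown work but call the cells of the control array untreated, so whether that array was mock transfected is not settled. The array labelled MIA siRNA, also of transfected cells by the design, differed from control in 85 probes lower (0.318%) and 157 higher (0.588%) of 26688. Members of the comparison are the gene probes that the scanner flagged good on both arrays, 25898 of 53103 usable gene probes. They stand for 12475 of the 18737 genes that a probe could be named for, each gene represented by whichever good probe was brightest on average across the 6 arrays.

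MIA2 belongs to the MIA family of proteins with an SH3-like domain, together with MIA, MIA3 (also called TANGO1 or TANGO) and OTOR. A long form of MIA2, described earlier under the name CTAGE5, works with MIA3 at the exit sites of the endoplasmic reticulum, where bulky cargo such as collagen is loaded into COPII-coated carriers. A short form is secreted, mainly by hepatocytes.

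The siRNA target was examined first. MIA2 lies on chromosome 14 from position 39233915 to 39388522 (GRCh38.p14), and 2 probes are assigned to it. The probe on the CTAGE5 record was good on all arrays, with a normalized signal of 168.7 on the MIA2 siRNA array, 175.2 on LEMD1 siRNA, 138.3 on MIA siRNA, 136.0 on TANGO siRNA, 238.3 on MATE2 siRNA and 155.3 on the control array. Its log2 ratio of the MIA2 siRNA array over control was 0.12, so the target was not lower by this probe, and the MIA2 siRNA array had the third highest signal of the 6. The probe on the MIA2 record itself was near background on all 6 arrays (13.4 on MIA2 siRNA and 18.6 on control) and gives no ratio. The measurable probe thus does not bear out the label, though the label does not say which form of MIA2 the siRNA targets. The name MIA2 siRNA array is used below for the array labelled so, and every direction given is that of this array and not of a measured loss of MIA2.

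The other targets of the series were read on the same arrays. MIA was near background on all 6 arrays, OTOR likewise, and no named probe was found for MIA3. SLC47A2, the gene of the transporter MATE2, had a signal of 1575 on the MIA2 siRNA array and 1510 on the control array (log2 ratio 0.06), against 58.9 on TANGO siRNA and 79.6 on MATE2 siRNA. LEMD1, which encodes a LEM domain protein of the cancer-testis group, was near background on the MIA2 siRNA array at 42.3 and on the LEMD1 siRNA array at 27.6. It was good at 195.1 on MIA siRNA, 3192 on TANGO siRNA, 1011 on MATE2 siRNA and 277.9 on control, which makes it at least 6.57-fold lower on the MIA2 siRNA array than on the control array. The LEMD1 probe was near background on these 2 arrays alone, as SLC47A2 was low on TANGO siRNA and MATE2 siRNA alone. Whether the label of the MIA2 siRNA array holds was not tested, and the deposited values do not settle it. SRPX2, a secreted ligand of the urokinase receptor, had a signal of 153.3 on MIA2 siRNA, 213.3 on LEMD1 siRNA, 1016 on MIA siRNA, 101.6 on TANGO siRNA and 1411 on control, and was near background on MATE2 siRNA at 28.3. The fall of SRPX2 on the MIA2 siRNA array was 9.21-fold (log2 ratio -3.20).

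**Figure D1:**
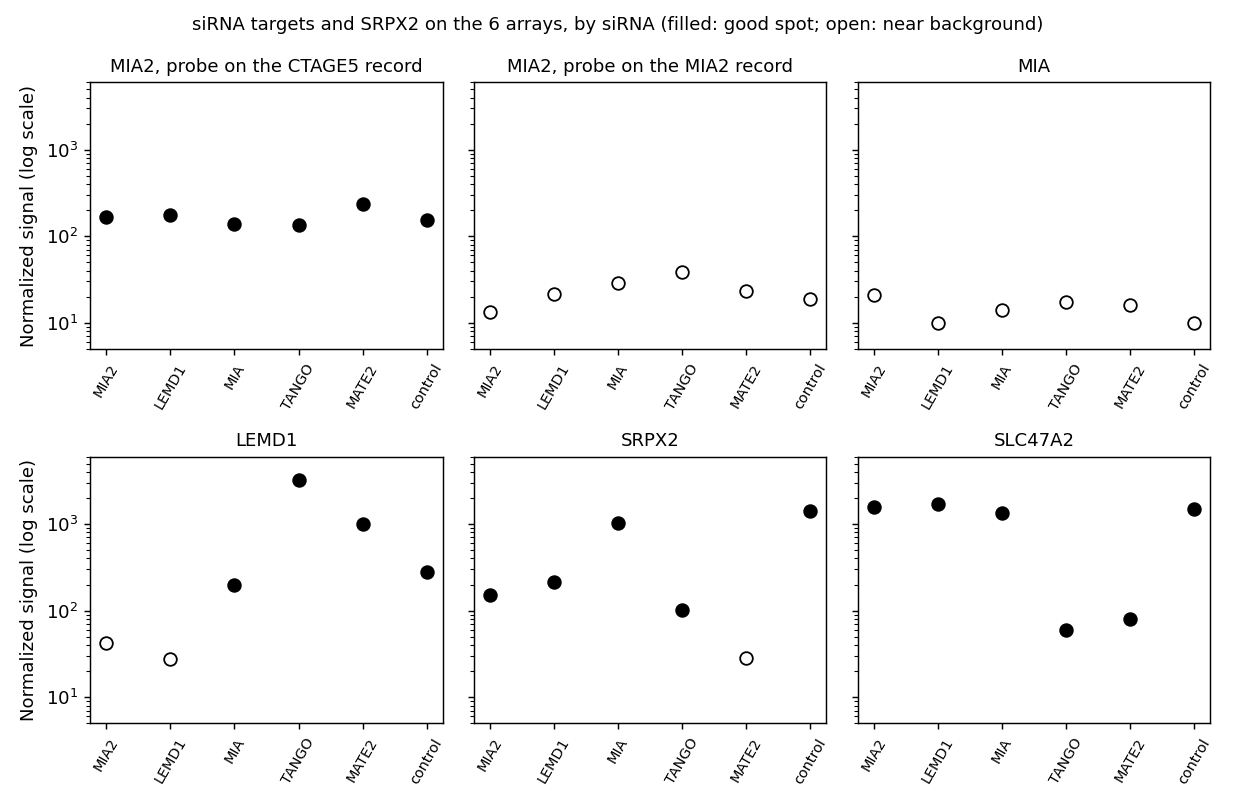
Normalized signal (log scale) of the siRNA targets and SRPX2 on the 6 arrays, named on the horizontal axis by their siRNA; filled points are good spots and open points are spots near background. The MIA2 probe on the CTAGE5 record is level at 136.0 to 238.3, while LEMD1 is near background on the arrays labelled MIA2 siRNA and LEMD1 siRNA alone.

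A change is called here where the log2 ratio was at least 1 in size, that is 2-fold. Each condition has 1 array, so no ratio has a replicate error or a p-value, and the rule is one of size alone. Of the 25898 probes, 969 (3.74%) were lower and 747 (2.88%) were higher on the MIA2 siRNA array. Among the 12475 genes, 649 (5.20%) were lower and 412 (3.30%) were higher. With each array scaled to its own median in place of quantile normalization, 541 genes were lower and 578 higher, so the excess of lower genes depends on that choice. The median log2 ratio was 0.05 over probes and -0.01 over genes, and the robust SD of the ratio was 0.50. Of the 1061 changed genes, 174 had a further good probe. Among those 198 further probes, 142 had the same sign, 42 passed 2-fold the same way and 2 passed it the opposite way.

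Across the series, good gene probes numbered 27545 on the MIA2 siRNA array, the lowest of the 6, to 30628 on LEMD1 siRNA, with 28700 on control. The median raw intensity of the MIA2 siRNA array was likewise the lowest at 44.1, against 50.5 on control. The ratio also moved with the place of the spot. In the first 20 of 504 array rows the median log2 ratio was -0.41, and 11.9% of probes were lower and 1.16% higher. In rows 361 to 380 the median was 0.38, and 2.21% were lower and 7.35% higher. Each array was therefore also centred within blocks of 20 rows and 28 columns. Of the 649 lower genes 526 were still called after this centring, as were 286 of the 412 that were higher. Below a gene is said to lose its call with centring where it did not stay past 2-fold.

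**Figure D2:**
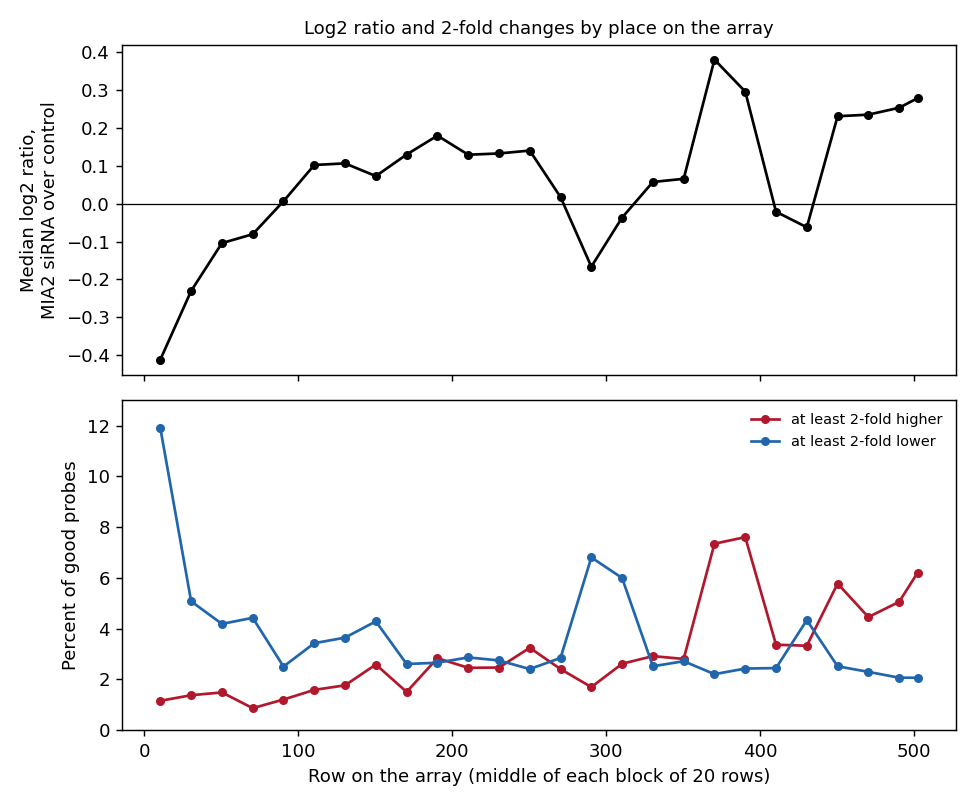
Median log2 ratio of the MIA2 siRNA array over the control array (top) and percent of good probes at least 2-fold higher or lower (bottom), by place on the array in blocks of 20 rows. The median is -0.41 in the first block and 0.38 in rows 361 to 380, and the share of lower probes peaks at 11.9% in the first block.

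The strongest fall among bright genes was that of CEACAM6, a carcinoembryonic antigen-related adhesion molecule, with a signal of 73.3 on the MIA2 siRNA array and 1332 on the control array (18.2-fold, log2 ratio -4.18). PHLDA1, a gene induced by growth factors, had 61.6 against 695.5 on control (-3.50), and BIRC3, an inhibitor of apoptosis induced by NF-kB, 59.9 against 669.9 (-3.48). ESM1, an endothelial proteoglycan also made by tumours, had 67.6 against 742.5 (-3.46). These genes fell to signals not far above the lowest good signal of the array, 38.6, while all were well expressed in control cells. SOX9, a progenitor transcription factor, had 136.0 on the MIA2 siRNA array and 1330 on control (-3.29). The retinol dehydrogenase DHRS9 (-2.95), the calcium binder calretinin CALB2 (-2.85), the membrane protease ADAM8 (-2.84), the plasminogen activator PLAT (-2.83), the scaffold AKAP12 (-2.73), the collagenase MMP1 (-2.70), the channel CNGA1 (-2.69) and the complement inhibitor CD55 (-2.64) were, with SRPX2, the others named among the strongest falls. All of these kept their calls with centring, and a second good probe of AKAP12 gave -2.13. Against the median of the 5 other arrays ESM1, SRPX2, ADAM8, AKAP12 and CNGA1 lost their calls, while the others named here kept theirs. The signals of CEACAM6 on the other arrays were 71.1 on LEMD1 siRNA, 1187 on MIA siRNA, 299.1 on TANGO siRNA and 792.3 on MATE2 siRNA, so the MIA2 siRNA and LEMD1 siRNA arrays were the low ones for this gene. Other falls were shared more widely. On TANGO siRNA and MATE2 siRNA, ESM1 had 46.8 and 49.1 and ADAM8 had 112.8 and 73.0, while MMP1 had 1861 and 765.9.

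The strongest rise was that of MRPL2, a protein of the large mitochondrial ribosomal subunit, with 8112 on the MIA2 siRNA array and 606.4 on control (13.4-fold, log2 ratio 3.74), although a second good probe of MRPL2 gave 0.55. GSTA4, a glutathione transferase for lipid aldehydes, had 1231 on the MIA2 siRNA array and 103.0 on control (3.58). KRT5, the type II keratin of basal keratinocytes, had 12770 against 1558 (3.03), and AKR1B10, an aldo-keto reductase that reduces retinal, 5868 against 720.2 (3.03). Each of these was above control on the LEMD1 siRNA array as well, with KRT5 at 14790 there. APOL4, of the apolipoprotein L family, followed at 3.00, with its other probes near background on the MIA2 siRNA array. Among these, a probe good on the control array read 56.35 there and 37.92 on the MIA2 siRNA array, the opposite direction. Next came the iron-sulfur cluster factor BOLA3 (2.88), CDKN2AIPNL (2.68), the non-coding RDUR (2.67), the plasma protein fetuin AHSG (2.61), C12orf54 (2.55), the zinc finger gene ZNF83 (2.45), the non-coding GIRGL (2.42), the cornified envelope protein SPRR1B (2.41), NIPSNAP3A (2.29) and the adenylate kinase AK1 (2.24). A second good probe of AHSG gave -0.97, the opposite direction, so the level of AHSG is uncertain. All 15 kept their calls with centring, and SPRR1B alone lost its call against the median of the 5 other arrays.

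**Figure D3:**
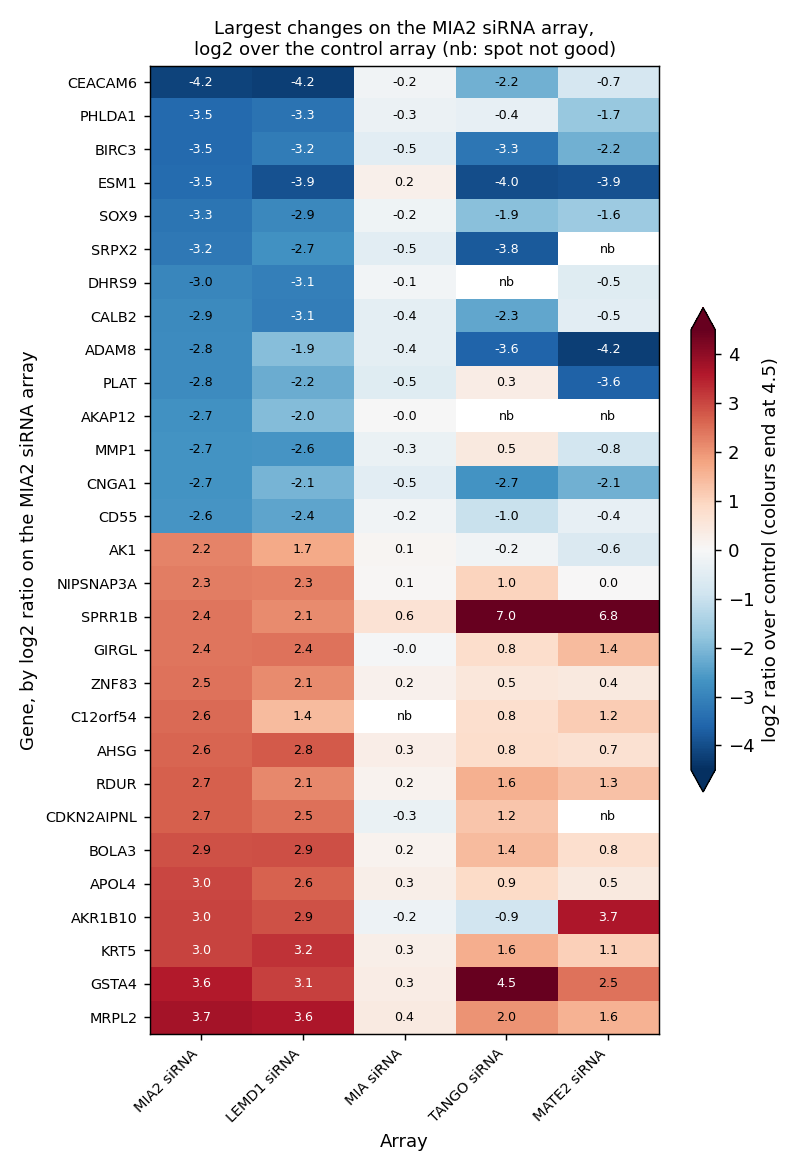
Log2 ratio over the control array on each of the 5 siRNA arrays for the genes named among the strongest falls and rises on the MIA2 siRNA array (nb marks a spot that was not good; all 5 columns share 1 control array). The MIA2 siRNA column runs through -4.18 for CEACAM6 to 3.74 for MRPL2, and the same rows on MIA siRNA lie between -0.54 and 0.64.

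Genes of DNA replication made up the list with the most falls. Of 41 measured members of the replication list, 18 were lower and none was higher, with 39 below control and a median log2 ratio of -0.87. The 18 are 43.9% of the list, against 5.20% lower over all genes. MCM10, which loads the replicative polymerase machinery, had 64.8 on the MIA2 siRNA array and 287.9 on control (-2.15). MCM6 had 144.4 against 545.0 (-1.92), MCM7 398.9 against 1393 (-1.80) and MCM4 276.3 against 858.4 (-1.64), all subunits of the helicase that opens DNA at origins. DTL, an adaptor of the ubiquitin ligase that limits origin licensing, had 207.7 against 779.6 (-1.91), and the flap endonuclease FEN1 590.4 against 1600 (-1.44). The other 12 were lower by log2 ratios of -1.37 to -1.03, while the sliding clamp PCNA was level (209.9 and 210.5) and CCNA2 did not pass the rule at 0.68. All 18 kept their calls with centring, and 16 of 18 were also lower against the MIA siRNA array, GINS1 and RRM1 being the exceptions. With normexp background correction 14 kept their calls. Against the median of the 5 other arrays MCM10, MCM6, MCM4 and FEN1 lost their calls, while DTL and MCM7 kept theirs. The signal of MCM10 was 96.8 on LEMD1 siRNA, 50.35 on TANGO siRNA and 91.8 on MATE2 siRNA. MCM6, DTL, MCM7, MCM4 and FEN1 were past 2-fold below control on the LEMD1 siRNA array too.

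Many replication genes are known to carry sites for E2F factors close to their start. The 250 bases before the RefSeq start (GRCh38.p14) were searched on both strands for TTTCCCGC or TTTGGCGC, which 1.96% of 27305 promoters hold. A match was found in 13 of the 34 measured replication genes with a promoter in the table (38.2%), and in 4 of the 15 that were lower. MCM10, the strongest fall of the list, held no match. MCM6, DTL and MCM7 are shown because they hold a match and fell the most among the 4 that do, 100 bases each, with the matches in capitals.
MCM6 (chr2:135876516-135876615, minus strand): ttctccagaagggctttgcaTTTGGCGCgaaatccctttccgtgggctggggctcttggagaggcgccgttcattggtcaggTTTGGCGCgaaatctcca
DTL (chr1:212035648-212035747, plus strand): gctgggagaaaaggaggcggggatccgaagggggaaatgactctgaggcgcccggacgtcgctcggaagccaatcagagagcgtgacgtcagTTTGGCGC
MCM7 (chr7:100101548-100101647, minus strand): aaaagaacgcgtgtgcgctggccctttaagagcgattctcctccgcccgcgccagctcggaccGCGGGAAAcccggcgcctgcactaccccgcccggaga

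Genes of DNA damage response and recombination were lower too. Of 39 measured members 12 were lower (30.8%, against 5.20% over all genes) and none was higher (median -0.61). RAD54B, a DNA translocase of homologous recombination, had 65.7 on the MIA2 siRNA array and 217.6 on control (-1.73). The helicase BLM (-1.66), XRCC2 (-1.40), BRCA1 (-1.36) and the mismatch repair subunit MSH6 (-1.36) followed. Of the 12 calls 9 were kept with centring, those of FANCC and TOPBP1 being among the calls lost, and 6 of the 12 were lower against the MIA siRNA array as well. Against the median of the 5 other arrays BLM, XRCC2, BRCA1 and MSH6 lost their calls, while RAD54B kept its call. On the LEMD1 siRNA array RAD54B, BLM, XRCC2 and MSH6 were past 2-fold below control too, while BRCA1 was not (-0.89).

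Genes of mitosis were more often higher than lower. Of 55 measured members 10 were higher and 1, the centromere gene CENPI (-1.03), was lower, with a median of 0.22. These are 18.2% higher and 1.82% lower, against 3.30% and 5.20% over all genes. CCNB1, the mitotic cyclin, had 1556 on the MIA2 siRNA array and 460.0 on control (1.76). BIRC5, of the chromosomal passenger complex, had 763.4 against 259.4 (1.56), the centromeric histone CENPA 242.7 against 90.3 (1.43), and the activator CDC20 of the anaphase-promoting complex 424.1 against 168.8 (1.33). The ubiquitin-conjugating enzyme UBE2S reached 1.33 and the cyclin CCNB2 1.25. Of these 10 calls 5 were lost with centring, those of CCNB2, AURKA, NEK2, KIF20A and PTTG1. Against the MIA siRNA array all 10 were kept, and CENPI was lost. On the LEMD1 siRNA array CCNB1, BIRC5, CENPA, CDC20, UBE2S and CCNB2 were past 2-fold above control too, with CCNB1 at 2040. The cell cycle gene homology region, TTTGAA, which 13.6% of promoters hold, was found in 26 of 48 measured mitosis genes with a promoter (54.2%), in 3 of the 8 that were higher and in 2 of 34 replication genes. The 3 are shown with the match in capitals, for comparison with the replication promoters above.
CENPA (chr2:26785954-26786053, plus strand): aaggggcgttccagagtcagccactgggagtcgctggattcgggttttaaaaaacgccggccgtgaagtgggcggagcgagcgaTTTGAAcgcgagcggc
CDC20 (chr1:43358832-43358931, plus strand): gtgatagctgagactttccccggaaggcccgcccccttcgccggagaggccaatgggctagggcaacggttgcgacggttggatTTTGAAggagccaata
CCNB2 (chr15:59105033-59105132, plus strand): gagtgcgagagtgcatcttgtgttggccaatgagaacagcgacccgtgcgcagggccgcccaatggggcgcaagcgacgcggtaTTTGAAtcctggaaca

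**Figure D4:**
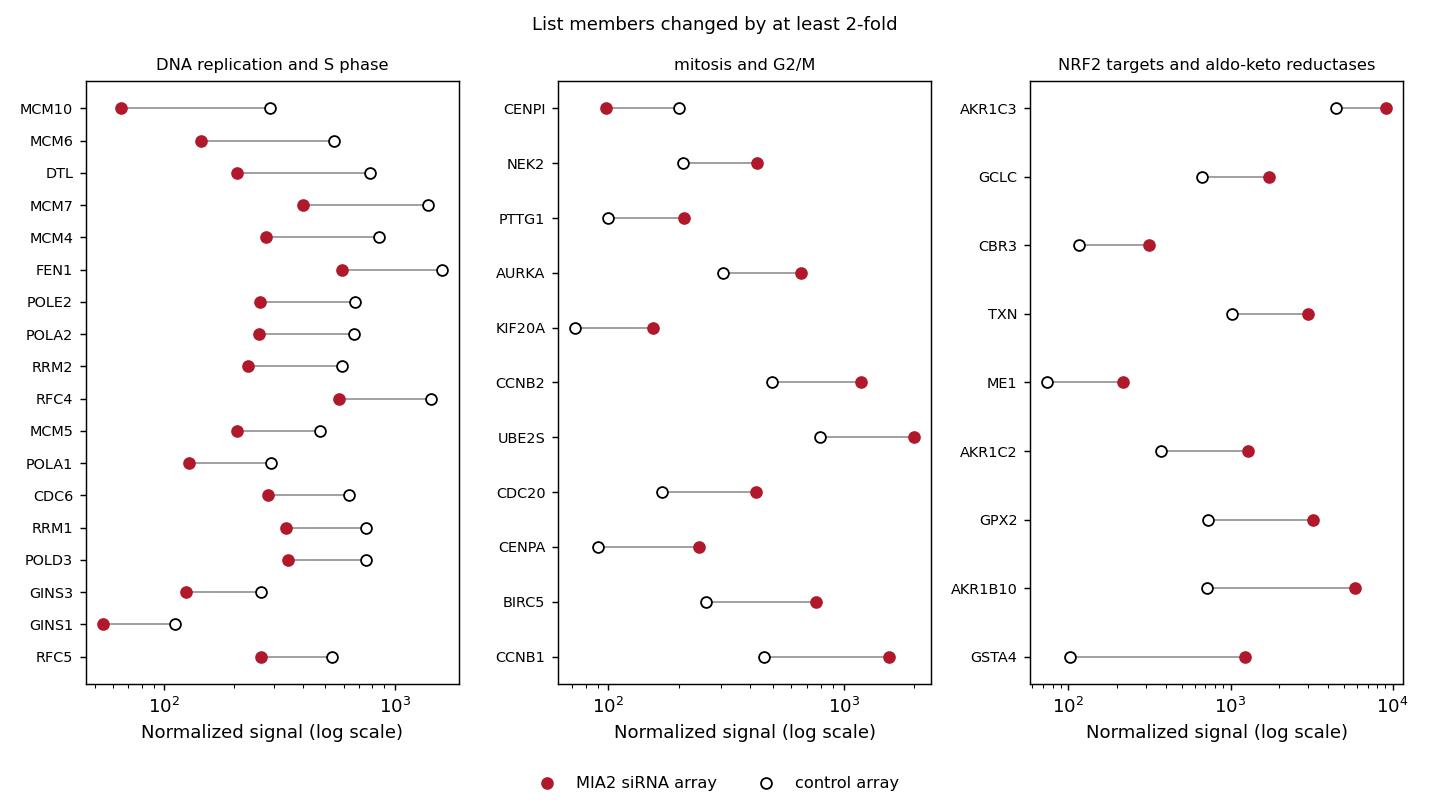
Normalized signal (log scale) on the MIA2 siRNA array (filled) and the control array (open) of every member changed by 2-fold in the lists of replication, mitosis and NRF2 target genes. All 18 replication genes lie to the left of control, while 10 of 11 mitosis genes and all 9 NRF2 list genes lie to the right.

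Targets and feedback genes of the ERK kinase pathway were lower. Of 15 measured members 7 were lower (46.7%, against 5.20% over all genes) and none was higher, with 14 below control and a median of -0.67. Besides PHLDA1, the ERK phosphatase DUSP6 had 57.3 on the MIA2 siRNA array and 350.4 on control (-2.61), and the AP-1 subunit FOSL1 had 137.0 against 688.6 (-2.33), with -0.86 by a second good probe. The EGF receptor ligand TGFA (-1.84), the ephrin receptor EPHA2 (-1.80), the transcription factor ETV4 (-1.52) and the inhibitor SPRED2 (-1.12) were the others, while EGR1 was at -0.20. Calls of all 7 were kept with centring and against the MIA siRNA array, but SPRED2 lost its call with normexp correction. On the LEMD1 siRNA array PHLDA1, DUSP6, FOSL1, TGFA and EPHA2 were past 2-fold below control too, with DUSP6 at 58.8. ETV4 was not (-0.16). Among the 11 measured EGF receptor family genes, TGFA was lower and the ligand NRG1 was higher (1.23, with 0.43 by a second good probe), and EGFR itself did not pass (716.8 and 1285, log2 ratio -0.84). That is 9.09% of this family each way, from a single gene each, against 5.20% lower and 3.30% higher over all genes.

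Other signalling lists moved in part. All 15 measured NF-kB genes were below control (median -0.56), and 3 passed the rule, BIRC3, TNFAIP2 (-1.08) and the inhibitor NFKBIA (-1.06). Of 21 immediate early genes (median -0.20) 5 were lower, FOSL1, CCN1 (-1.99), IER5 (-1.91), CSRNP1 (-1.42) and GADD45B (-1.19), and FOS was higher with 1437 against 321.2 (2.16). Of 19 YAP targets (median -0.56) 4 were lower, namely CCN1, the coagulation factor F3 (-1.79), AMOTL2 (-1.78) and IGFBP3 (-1.55), and none was higher. All 4 of these lost their calls against the median of the 5 other arrays. The TGF-beta and ID list of 17 (median 0.02) held 2 lower genes, PMEPA1 (-1.40) and LTBP2 (-1.01), and 2 higher, ID3 (1.84) and BMP2 (1.04, lost with centring). Genes of the ATF4 amino acid response were lower in 5 of 21, with no rise (median -0.41). They were CHAC1 (-1.74), CTH (-1.68), the asparagine synthetase ASNS (-1.45), MTHFD2 (-1.22) and SHMT2 (-1.18), and all 5 kept their calls against the MIA siRNA array and with centring. Against the median of the 5 other arrays CTH and SHMT2 lost their calls, while CHAC1, ASNS and MTHFD2 kept theirs. On the LEMD1 siRNA array CHAC1, CTH and ASNS were past 2-fold below control too, while MTHFD2 (-0.94) and SHMT2 (-0.97) were not. In the other lists of this paragraph NFKBIA, CSRNP1 and LTBP2 lost their calls against the MIA siRNA array. With normexp correction TNFAIP2, GADD45B, LTBP2 and BMP2 lost theirs.

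Secreted and surface proteins of invasion and vessel growth included several of the strongest falls. Over all genes 5.20% were lower and 3.30% higher. Lower were 28.6% of the urokinase list, 23.5% of metalloproteinase, 26.3% of angiogenic and 14.3% of cytokine genes. Higher were 7.14% of the urokinase list, 5.26% of angiogenic and 4.76% of cytokine genes. In the urokinase list 4 of 14 measured genes were lower and 1 was higher (median -0.49). Besides SRPX2 and PLAT, the urokinase receptor PLAUR had 151.9 on the MIA2 siRNA array and 647.2 on control (-2.09), and the protease inhibitor SERPINE2 had 156.3 against 658.8 (-2.08). S100A10, which binds plasminogen at the surface, rose (1.01), while the urokinase gene PLAU at -0.97 and HGF at 0.26 did not pass. Of 17 metalloproteinase genes 4 were lower and none higher (median 0.03), with MMP1 and the inhibitor TIMP2 (212.9 against 781.7, -1.88) ahead of matrilysin MMP7 (2106 against 7327, -1.80) and ADAM10 (-1.01, lost with centring). Of 19 angiogenic genes (median -0.19) 5 were lower, ESM1, CCN1, EPHA2, THBS1 (-1.24) and CXCL8 (-1.06), and the peptide hormone ADM was higher (1.37). THBS1 had a further good probe at 0.18. In the cytokine list of 21 (median -0.01), IL23A (-2.34), CCL5 (-1.37) and CXCL8 were lower and the receptor IL6R was higher (617.4 against 146.4, 2.08). Against the MIA siRNA array S100A10, ADAM10, THBS1, CXCL8 and CCL5 lost their calls, and with normexp correction the same 5 did. Against the median of the 5 other arrays SRPX2, ESM1, TIMP2, MMP7, ADAM10, CCN1, THBS1 and CCL5 lost their calls, and ESM1 changed sign. PLAT, PLAUR, SERPINE2, MMP1, EPHA2, CXCL8, IL23A, S100A10, ADM and IL6R kept theirs.

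Basal keratinocyte and hemidesmosome genes held both falls and rises. Of 22 measured basal keratinocyte and hemidesmosome genes 8 were lower and 4 were higher (median -0.23). These are 36.4% lower and 18.2% higher, against 5.20% and 3.30% over all genes. Laminin chain genes were lower, with LAMB3 at 428.5 on the MIA2 siRNA array and 1432 on control (-1.74) and LAMA3 at 1314 against 4327 (-1.72). A second, dimmer good probe of LAMB3 gave 0.70. LAMA5 (-1.47), the integrins ITGB4 (-1.23), ITGA3 (-1.12) and ITGB1 (-1.02) and the linker PLEC (-1.02) were lower as well. KRT5 and its partner KRT14, at 16780 against 5354 (1.65), were higher, as were the desmosomal DSC3 (1.08) and the anchoring fibril collagen COL7A1 (1.05). All 12 calls were kept with centring, but PLEC, LAMA5 and ITGB1 lost theirs against the MIA siRNA array, and PLEC, COL7A1 and DSC3 with normexp correction. In the integrin list of 16 (median 0.01), ITGA2 (-1.64, and -3.002 by a second good probe) and ITGB2 (-1.31) were lower besides these 3, and ITGB2 too lost its call both ways. Of the integrin list 31.2% was lower. Against the median of the 5 other arrays LAMB3, LAMA3, ITGB4, ITGA3, ITGB1 and ITGB2 lost their calls, and ITGB2 changed sign. LAMA5, ITGA2, KRT5, KRT14 and COL7A1 kept theirs. TP63, which marks squamous epithelium, was good on both arrays at 1089 and 856.4.

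Squamous differentiation genes showed both directions. Over all genes 5.20% were lower and 3.30% higher. Lower were 9.09% of cornified envelope, 11.1% of tight junction and adhesion and 13.3% of mesenchymal transition genes. Higher were 15.2% of cornified envelope and 6.67% of mesenchymal transition genes. Of 33 measured cornified envelope genes (median 0.20) 5 were higher, SPRR1B, the crosslinking enzyme TGM1 (536.6 against 142.6, 1.91), KRT13 (1.36), CNFN (1.30) and CSTA (1.18). Lower ones were the kallikreins KLK10 (832.8 against 3238, -1.96) and KLK5 (-1.23) and the inhibitor SERPINB1 (-1.34). Of 27 tight junction and adhesion genes (median -0.31) 3 were lower, CEACAM6, CLDN4 (-1.73) and CLDN7 (-1.02), and none was higher. In the mesenchymal transition list of 15 (median 0.15), SOX9 and CD44 were lower (CD44 -1.16, with -0.36 by a second good probe, and lost with centring), and the matrix protein SPARC was higher at 1979 against 489.4 (2.02, with 1.75 by a second good probe). Against the MIA siRNA array KLK5 and CLDN7 lost their calls, and with normexp correction CLDN7, CSTA and CNFN did. Calls lost against the median of the 5 other arrays included those of SPRR1B, KRT13, CLDN7 and CD44. TGM1, CNFN, KLK10, SERPINB1, CEACAM6, CLDN4, SOX9 and SPARC kept theirs.

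**Figure D5:**
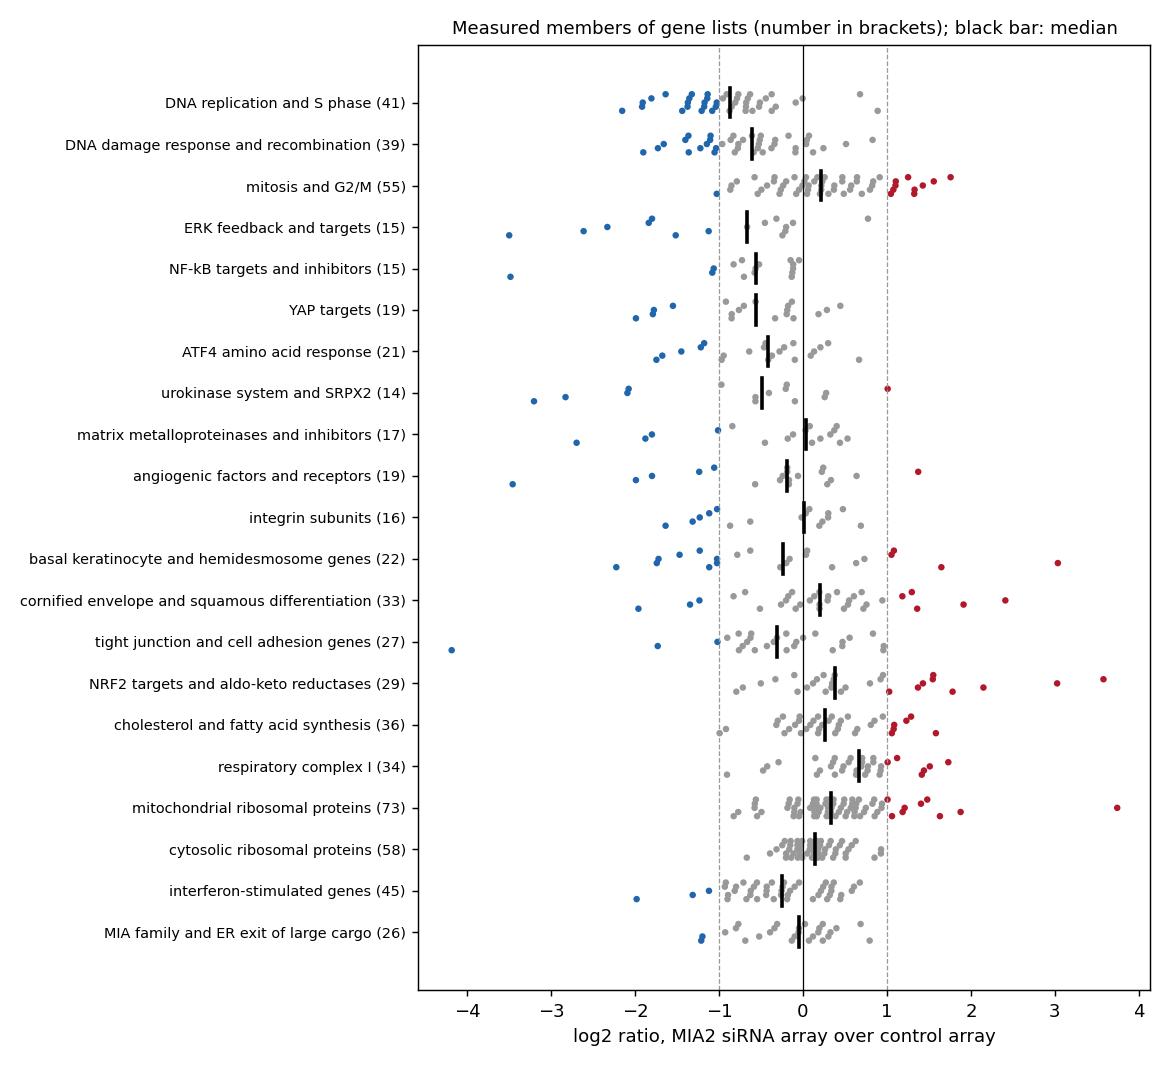
Log2 ratio of the MIA2 siRNA array over the control array for the measured members of 21 gene lists, with the number measured in brackets; blue points are at least 2-fold lower, red points at least 2-fold higher, and the black bar is the list median. Replication has the lowest median (-0.87) and respiratory complex I the highest (0.67) of the lists drawn.

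Genes of the NRF2 antioxidant response and aldo-keto reductases were higher. Of 29 measured members 9 were higher (31.0%, against 3.30% over all genes) and none was lower (median 0.38). After GSTA4 and AKR1B10 came the peroxidase GPX2 with 3238 on the MIA2 siRNA array and 730.2 on control (2.15), AKR1C2 with 1286 against 374.1 (1.78), the malic enzyme ME1 (1.55) and thioredoxin TXN (1.55). CBR3, the glutathione synthesis enzyme GCLC and AKR1C3 made up the 9, and AKR1C3 alone lost its call with centring. On the LEMD1 siRNA array GSTA4, AKR1B10, GPX2, AKR1C2, ME1 and TXN were past 2-fold above control too, with AKR1C2 at 1657. GPX2 lost its call against the median of the 5 other arrays. AKR1C genes are near-identical copies, and the probes may not tell them apart. NQO1 at 0.92 and HMOX1 at 0.38, widely used NRF2 targets, did not pass. The antioxidant response element, TGACNNNGC, which 11% of promoters hold, was found in 5 of 22 measured members with a promoter and in 3 of the 7 that were higher. Those 3 are shown with the match in capitals.
GSTA4 (chr6:52995285-52995384, minus strand): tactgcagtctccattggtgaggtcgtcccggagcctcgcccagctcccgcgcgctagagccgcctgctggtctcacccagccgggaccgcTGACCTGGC
GPX2 (chr14:64942849-64942948, minus strand): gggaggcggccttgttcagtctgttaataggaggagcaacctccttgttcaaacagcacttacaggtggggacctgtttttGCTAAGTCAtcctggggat
ME1 (chr6:83431170-83431269, minus strand): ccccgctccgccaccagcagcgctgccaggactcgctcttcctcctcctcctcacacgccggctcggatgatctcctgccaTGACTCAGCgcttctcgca

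Respiratory complex I and mitochondrial ribosomal protein lists had medians above control. Over all genes 5.20% were lower and 3.30% higher. Higher were 17.6% of complex I, 12.3% of mitochondrial ribosomal, 16.7% of sterol and fatty acid, 9.68% of glycolysis and hypoxia and 6.67% of proteasome genes. Lower were 3.23% of glycolysis and hypoxia and 3.33% of proteasome genes. Of 34 measured respiratory complex I genes 30 were above control and 6 were higher (median 0.67), with NDUFA2 at 810.5 on the MIA2 siRNA array and 244.2 on control (1.73), NDUFC1 (1.51), NDUFB6 (1.44), NDUFA5 (1.41), NDUFA12 (1.12, lost with centring) and NDUFB2 (1.01). On the LEMD1 siRNA array NDUFA2 (1.09) and NDUFA5 (1.08) were past 2-fold above control. NDUFC1 (0.96), NDUFB6 (0.69), NDUFA12 (0.82) and NDUFB2 (0.78) were above control there but did not pass. Of 73 mitochondrial ribosomal protein genes 9 were higher and none lower (median 0.33), and 7 of these calls were kept with centring and 6 with normexp correction. The 9 included MRPL2, MRPL40 (654.7 against 178.2, 1.88), MRPL54 (1.63), MRPL58 (1.48), MRPL19 (1.41, with 0.07 by a second good probe) and MRPL1 (1.21). The 58 cytosolic ribosomal protein genes held no change (median 0.15). Of 36 sterol and fatty acid synthesis genes (median 0.27) 6 were higher, LSS (1.58, with 0.35 by a second good probe), MVK (1.29), SREBF2 (1.23, with 0.07 by a second good probe), INSIG1 (1.09), IDI1 (1.08) and SC5D (1.06), but MVK, SREBF2, INSIG1 and SC5D lost their calls with centring. Of 31 glycolysis and hypoxia genes (median 0.21) the lactate carrier SLC16A3 was lower (-2.24) and BNIP3 (1.67), EGLN3 (1.45) and ADM were higher. A further BNIP3 probe went the other way, good on control at 77.24 and near background on the MIA2 siRNA array at 39.37. Of 30 proteasome genes (median 0.36) PSMC3 was lower (-1.91), and PSMD14 (1.05, with -0.17 by a second good probe) and PSMA7 (1.01) were higher, both lost with centring. Of 24 heat shock and chaperonin genes 15 were below control (median -0.30). Their shares of 8.33% lower and 4.17% higher lie near the 5.20% and 3.30% over all genes. HSPB1 was higher at 5975 against 1334 (2.16), and HSPA1L (-1.75, with 0.52 by a second good probe) and HSPH1 (-1.32) were lower. Against the MIA siRNA array NDUFA12, MRPL19, MRPL20, LSS, SC5D, SREBF2, PSMD14, PSMA7 and HSPH1 lost their calls.

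Shares of changed genes differed among the immune and cell death lists. Of 45 measured interferon-stimulated genes 3 were lower, HERC5 (-1.98), IRF7 (-1.31) and IFI44L (-1.12), and none was higher (median -0.25). This 6.67% lies near the 5.20% over all genes, and IRF7 and IFI44L lost their calls against the MIA siRNA array. Of 14 genes of MHC class I presentation, HLA-E (-1.59), the transporter TAP1 (-1.18) and HLA-F (-1.06) were lower, a share of 21.4%. TAP1 and HLA-F lost their calls against the MIA siRNA array, and HLA-F with median scaling. HLA genes are close in sequence, and their probes may read one another. In the list of RNA interference and double-stranded RNA sensing (13 genes), TARBP2 was higher (1.53) and AGO2 was just past the threshold (-1.003, with -0.09 by a second good probe), which is 7.69% each way, and AGO2 lost its call against the MIA siRNA array and with normexp correction. Of 26 p53 targets (median -0.37) 4 were lower, GADD45A (372.0 against 1546, -2.06), TNFRSF10B (-1.22, with 0.01 by a second good probe), GADD45B and TNFRSF10A (-1.06), and TP53I3 was higher (1.11, lost with centring). These are 15.4% of the p53 list lower and 3.85% higher. In the list of 27 BCL2 family and apoptosis inhibitor genes, BIRC3 and BIRC2 (-1.10) were lower, and BNIP3, BIRC5 and BAD (1.40) were higher, 7.41% and 11.1% of the list. BIRC2 and BAD lost their calls against the MIA siRNA array.

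The pathway of the MIA family itself changed in few members. Of 26 measured genes of the family and of ER exit, the COPII coat subunit SEC24A (105.9 on the MIA2 siRNA array and 245.1 on control, -1.21) and the cargo receptor subunit MCFD2 (209.4 against 480.1, -1.20) were lower, and none was higher (median -0.05). This share of 7.69% lies near the 5.20% over all genes. SEC24A lost its call with normexp correction, and MCFD2 against the MIA siRNA array. Of 26 collagens and their modifying enzymes, LOXL4 (-1.58) and PLOD3 (-1.38) were lower and LOXL2 (1.505) and COL7A1 were higher, 7.69% each way, and LOXL2 lost its call against the MIA siRNA array and COL7A1 with normexp correction. Of 18 ER chaperone genes the transcription factor XBP1 was lower (-1.21, with -0.00 by a second good probe) and the translocon subunit SEC61B was higher (1.41), 5.56% each way. In the LEM domain and lamina list of 18, LEMD2 (-1.70, with -0.21 by a second good probe) and SYNE2 (-1.35, with -0.56 and -0.13 by further good probes) were lower, SYNE2 not against the MIA siRNA array. These are 11.1% of that list, against 5.20% lower over all genes. The 6 measured cancer-testis antigen genes held no change. Of 16 drug efflux genes the copper transporter gene SLC31A2 was higher (1.003, lost with centring and against the MIA siRNA array), and of 8 measured hepatocyte genes only AHSG passed. These single genes are 6.25% and 12.5% of their lists, against 3.30% higher over all genes.

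The cell type label was checked with marker lists. All 22 basal keratinocyte and hemidesmosome genes were good on both arrays. Of 9 fibroblast, 8 endothelial and 11 leukocyte markers, 4, 3 and 3 were good on both, and none of these was changed. The markers not good on both arrays included DCN, VWF and PTPRC. A further leukocyte marker was good on the MIA2 siRNA array, at least 2-fold higher there, and near background on control. Some markers of each of these lists were thus detected.

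Some probes were good on 1 array and near background on the other, and for these the ratio is a bound taken against the lowest good signal of the dim array or the dim spot itself, whichever was higher. At least 2-fold lower were 154 of 1210 named probes good on control alone, and at least 2-fold higher were 129 of 708 good on the MIA2 siRNA array alone. HYDIN was at least 13.6-fold lower with a control signal of 524.1, but it was near background at 5.20 to 16.3 on the other 5 arrays, so that the control array stood alone. CCDC71L (at least 8.99-fold), the steroid dehydrogenase HSD17B2 (6.58-fold), MEFV (6.19-fold), the G protein subunit GNG4 (5.76-fold), CEACAM5 (5.03-fold) and the matrix protein EFEMP2 (4.93-fold) were lower with LEMD1. Higher were the neuropeptide NMU (at least 6.94-fold, 237.6 against 16.4), PSRC1 (6.22-fold), the protease subunit CAPNS2 (6.14-fold), the retinol dehydrogenase RDH12 (5.62-fold), HSD17B3 (5.51-fold), the cyclooxygenase PTGS1 (5.49-fold), the histone chaperone ASF1A (4.17-fold) and the lectin LGALS7 (4.17-fold). These bounds are of single probes. A further probe good on both arrays gave log2 ratios of -1.30 for HYDIN, 0.32 for CCDC71L, 0.30 for GNG4 and 0.03 for PTGS1, so for the last 3 of these the probes disagree.

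The array was last set against the other 5. Against the LEMD1 siRNA array, 176 of 26726 probes (0.659%) were lower on the MIA2 siRNA array and 78 (0.292%) were higher. Against MIA siRNA, 570 (2.19%) were lower and 470 (1.81%) higher of 25971. Against TANGO siRNA, 1643 (6.41%) were lower and 1686 (6.58%) higher of 25622, and against MATE2 siRNA 1330 (5.14%) and 1636 (6.32%) of 25894. The MIA2 siRNA array thus lay closest to LEMD1 siRNA by this count. Of the genes changed against control, 35 were lower and 7 higher against LEMD1 siRNA too. Of the 35, 32 lay in the first 40 rows of the array, which hold 8.79% of the probes, and 9 kept both calls with centring. ETV4 and LAMA5 were among the 35, with 556.0 and 6620 on the LEMD1 siRNA array, and lie in rows 8 and 18. Neither was among the 9 that kept both calls with centring. Of the 7 higher genes none lay in those rows and 5 kept both calls with centring, namely C12orf54, S100A10, ABRACL, NPM3 and CALHM6. COL7A1 and KIF20A were higher than control but lower than LEMD1 siRNA, with COL7A1 at 657.5 on MIA2 siRNA, 1414 on LEMD1 siRNA and 316.7 on control.

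Probes that set the MIA2 siRNA array apart from every other array were few. Of 23444 probes good on all 6 arrays, 7 (0.0299%) were 2-fold below each other array and 1 (0.00427%) was 2-fold above. The one above was ABRACL, a small actin regulator, with 215.4 on the MIA2 siRNA array, 82.6 on LEMD1 siRNA, 74.8 on MIA siRNA, 55.5 on TANGO siRNA, 60.7 on MATE2 siRNA and 61.6 on control. Its nearest neighbour was 2.61-fold lower, and ABRACL lies in row 263 and kept this place with centring. The named genes below each other array were SLC16A12, a creatine and carboxylate transporter, with 107.1 against 244.5 to 356.4 on the others, and RELT, a TNF receptor family member, with 179.9 against 375.2 to 552.2. A second good probe of RELT gave -0.05 against control. Of the 7 probes below, 5 lay in the first 40 rows, these 2 genes among them, and 1 unnamed probe was left with centring. The part of spot position in these differences was not tested beyond the centring.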

How the data were processed

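Gene expression was measured in HSC3 cells on 6 CodeLink Human Whole Genome arrays, 1 per condition. Spot intensity was read from the scanner files as deposited by the authors, whose headers name CodeLink Expression Analysis 5.0.0.31312. The raw intensity is the spot mean less the local background median, which held within 0.0001 on every unmasked spot. The deposited normalized intensity table holds the authors' quantile normalized values, is linear and not centred, and each column has a median of 51.1; all its values (100%) lay within 1% plus 1 of a quantile normalization of the scanner values, and it was used as an alternative.

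Of 53423 gene probes, 320 masked on any array were left out. The raw intensities were quantile normalized over the 6 arrays, set to a floor of 1 and taken as log2. Symbols came from the platform annotation, updated to current symbols (23311 probes with 1 symbol, 898 with several and left unnamed), or from the sequence accession (649); 28245 probes have no name here. Coordinates and promoter sequences are from RefSeq (GRCh38.p14), and the members of a list that the promoter table holds are given beside each count. With 1 array per condition no test was run, and precision is limited by that number. Replicate spots of 28 control probes had a median SD of log2 signal of 0.12 on the MIA2 siRNA array and 0.17 on the control array, and 1 of 384 negative control spots was good on each.

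Named genes are the 15 lowest and 15 highest log2 ratios among changed genes whose higher signal was above 174.1, the median of good probes; up to 6 changed members of each of 43 lists; up to 8 bounds in each direction; genes 2-fold apart from every other array; and the siRNA targets with SRPX2. CENPI, AURKA, NEK2, KIF20A, PTTG1, PLEC, DSC3, KLK5, CSTA, CBR3, GCLC, AKR1C3, FANCC, TOPBP1, GINS1, RRM1, SPRED2, MRPL20, NPM3, CALHM6 and members given as not passing were named after their values were seen. Some genes that meet the rule are not reported here. The members and lists were chosen with earlier results of these data known. The rule was run on simulated arrays with planted changes larger than 2-fold and no drift by place. Its behaviour at 2-fold or with such drift was therefore not tested. Python 3.11.15, numpy 2.4.6, pandas 2.3.3, matplotlib 3.10.9, R 4.3.3 and limma 3.58.1 were used. Alternatives were other normalizations, background corrections, flag filters, an added 50, other comparators and the mean over probes. Centring by place on the array was added after seeing the data.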

Additional observations from a re-analysis of the deposited data

How the results depend on the processing

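The counts of changed probes (969 lower, 747 higher) depended on the treatment of dim spots and on the comparator. With normexp correction they were 492 and 374, without background correction 437 and 327, with 50 added 508 and 382, for probes above the median signal on both arrays 435 and 316, with a good spot on at least 1 array 2059 and 1426, and with no filter 6515 and 6043. With the MIA siRNA array as comparator they were 570 and 470, and with the median of the 5 other arrays 351 and 451. The cause of these differences was not tested. The other alternatives, among them the deposited table and centring by place (chosen after seeing the data), kept both counts within 1.5 times. The 7 probes below each other array became 0 with normexp, without background correction and with 50 added, and 1 with centring by place. The 1 probe above became 0 with normexp and without background correction, and 7 with median scaling. The MIA2 ratio stayed within 1 robust SD (0.50) under all alternatives run for it. Of 162 named genes called, 15 lost the call with centring by place, 30 with normexp, 29 with the MIA siRNA array as comparator and 67 with the median of the others, and 71 were called under every alternative. With that median, ESM1 (0.462), MCFD2 (0.0689) and ITGB2 (0.185) changed sign. Signals under 38.6 on the MIA2 siRNA array and 34.2 on control were never good, which limits what can be called for dim genes. No paired analysis was possible because each condition has 1 array.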
